A study of Homo sapiens with 8 samples.

Results

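Transfer RNA for alanine is made in human cells from genes with several anticodons, and the table analysed here lists 51 of them among 631 tRNA genes. They were chosen by the amino acid that the deposited table lists for each gene, with no use of the counts. No alanine row carried the prefix nm-, which the choice would have left out. By the anticodon column, 35 of the genes were AGC, 5 were CGC, 10 were TGC and 1 was GGC. The counts come from small RNA libraries of HEK293T, a human embryonic kidney cell line. The ADAT2 knockdown cells are a stable heterozygous line made with a CRISPR/Cas9 plasmid and a guide against ADAT2, labelled with 50% ADAT2 expression. The control cells were given a Cas9 plasmid that lacks a guide, and their label gives 100%. Each group has 2 libraries, numbered 3 and 4 in both groups, and each library was sequenced in 2 lanes that share a single column of counts. No label ties the libraries to separate cultures, so the library-to-library spread behind the p-values below may be purely technical. Each condition is 1 line, so ADAT2 and any further difference between the lines cannot be told apart.

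ADAT2 pairs with ADAT3 to form the enzyme that converts adenosine at anticodon position 34 of certain tRNAs to inosine. Of the alanine tRNAs only those with the anticodon AGC carry that adenosine. With inosine they can read the alanine codons GCU, GCC and GCA, whereas tRNA with CGC reads GCG and tRNA with TGC reads mainly GCA and GCG. Inosine is copied as guanosine in sequencing, so a read from an edited tRNA differs from its gene at that base. Alanyl-tRNA synthetase, the enzyme that loads alanine, recognises its tRNAs by a G:U pair in the acceptor stem and not by the anticodon.

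Most alanine genes lie together. On GRCh38, 41 of the 51 were on chromosome 6, in 3 groups: 15 genes at chr6:26553503-26828299, 18 genes at chr6:28607156-28863756 and 8 genes at chr6:57792833-57870417. The other 10 were spread over chromosomes 1, 2, 5, 8, 11, 12, 14 and 19. In GENCODE v29, 41 lay between annotated genes, 7 in introns and 3 in exons. None was flagged as having an intron of its own. Length separated the AGC genes by place. The 9 AGC genes of 72 bases were exactly the 9 AGC genes of the second group on chromosome 6, while the 25 AGC genes of 73 bases lay in the other groups and on other chromosomes. One AGC gene on chromosome 1 was 71 bases long.

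A sequence is shown from the 72-base and from the 73-base AGC genes, since both classes turn up in the results below. Ala-AGC-2-2 (chr6:28863685-28863756, minus strand) lies in an intron of LINC01623 and was read from the RefSeq promoter window of that gene. Ala-AGC-10-1 (chr6:26687257-26687329, plus strand) lies in an exon of AL513548.1 and was read from its GENCODE transcript; it was chosen because its sequence could be read, not for its values. Capitals mark the anticodon, whose A is the base that ADAT edits.
Ala-AGC-2-2: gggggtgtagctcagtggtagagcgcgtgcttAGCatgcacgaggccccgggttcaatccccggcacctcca
Ala-AGC-10-1: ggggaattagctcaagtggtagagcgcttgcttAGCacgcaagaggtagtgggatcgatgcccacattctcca
The anticodon stood at bases 33 to 35 of the shorter gene and 34 to 36 of the longer. Aligned over 74 columns, the genes had 56 identical bases, 15 mismatches and 3 gap columns, or 75.7% identity. Both could form all 7 acceptor pairs and all 5 anticodon stem pairs, counting G with T as a pair. The third acceptor pair was G with T in both, the place of the pair that the synthetase recognises.

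The alanine genes of the first chromosome 6 group included a mirrored arrangement. Within 154938 bases, 6 AGC genes on the plus strand each had a partner of the same length and prediction score on the minus strand, at the same distance from a common centre. The sums of the outer coordinates of the 6 pairs differed by at most 28 bases. The pairs included Ala-AGC-9-1 (chr6:26730534-26730606) with Ala-AGC-9-2 (chr6:26771080-26771152). Ala-AGC-10-1 had its partner at chr6:26814339-26814411. Near-identical copies of a tRNA gene can share reads, so the split of counts between members of a pair is uncertain. Ala-AGC-9-1 and Ala-AGC-9-2 had almost the same counts in every library, at most 1.07-fold apart, while Ala-AGC-13-1 had 15 and 182 counts in knockdown libraries 3 and 4 and 16 and 103 in control libraries 3 and 4, where its partner had 5 and 80 in knockdown and 4 and 42 in control libraries.

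Levels are given as CPM, each gene's counts scaled to the table's total in that library. Totals were 878791 and 1211292 in knockdown libraries 3 and 4, against 698143 and 1069932 in control libraries 3 and 4. Alanine genes held 7918 and 45613 of these in knockdown libraries, against 5914 and 37233 in control libraries. In all, 47 of the 51 genes had a count in every library and 16 had at least 100 in every library. Only Thr-GGC-chr19-3, in an exon of ZNF136, had no count in any library, and it is also the single member whose name (threonine) disagrees with its amino acid column (alanine). A count of 0 allows up to 3 counts, or 3.41 and 2.48 CPM in knockdown libraries 3 and 4 and 4.30 and 2.80 CPM in control libraries 3 and 4.

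Reads came mainly from a few genes. The 10 genes with the most counts in a library held 73.5% and 76.3% of the alanine counts in knockdown libraries 3 and 4, against 70.9% and 80.1% in control libraries 3 and 4. Ala-TGC-4-1 (chr12:124939966-124940037, plus strand) led in every library, with 1326 and 10940 counts in knockdown libraries 3 and 4, against 1492 and 10392 in control libraries 3 and 4. Its share of the alanine counts was 16.7% and 24.0% in knockdown libraries and 25.2% and 27.9% in control libraries, so it was below the same-numbered control in both numbers. By mean CPM it was followed by Ala-CGC-3-1 on chromosome 2, Ala-AGC-7-1 on chromosome 6, and the TGC copies Ala-TGC-3-2 and Ala-TGC-3-1 on chromosomes 12 and 5. Across the 51 genes the deposited prediction score, a measure of how well a gene matches the tRNA model, had a Spearman correlation of 0.66 with mean CPM, and 0.52 across the 35 AGC genes. The points share libraries and, for copies, reads.

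**Figure D1:**
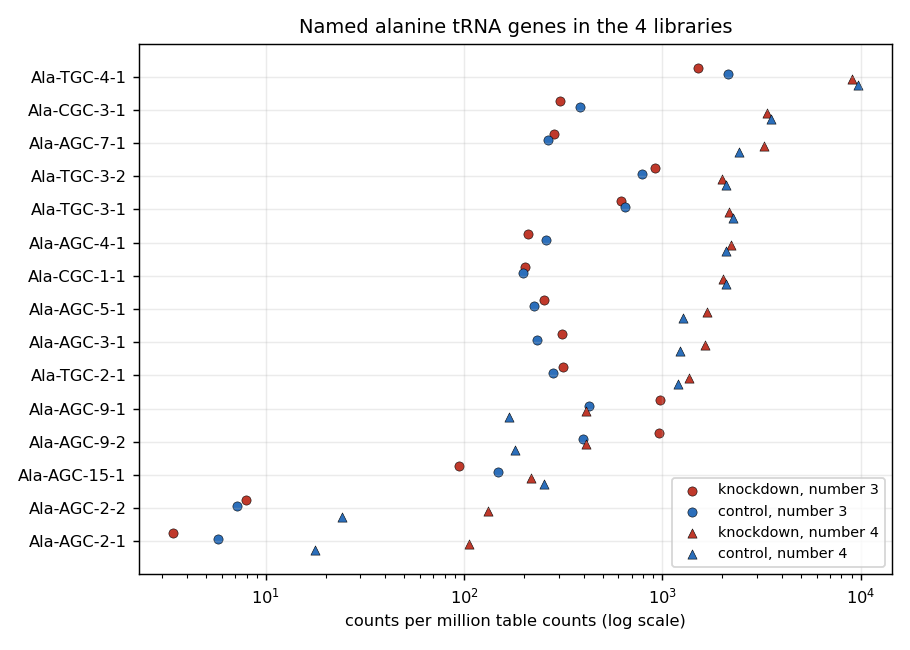
CPM (log axis) of the 15 named alanine genes with counts, in the 4 libraries; circles are replicate number 3, triangles number 4, red knockdown and blue control. Most genes lie further right in both number 4 libraries. Ala-AGC-9-1 and Ala-AGC-9-2 lie further left in number 4 than in number 3 within each line. The points of knockdown and control overlap for every gene but Ala-AGC-9-2.

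The first comparison asked whether the edited anticodon takes up a different part of the alanine reads in the knockdown line. AGC genes held a larger share of the alanine counts in both knockdown libraries, and TGC genes a smaller one. AGC made up 46.2% and 38.8% of alanine counts in knockdown libraries 3 and 4, against 36.4% and 32.6% in control libraries 3 and 4. The 95% Wilson intervals, which cover counting error only and for every other share of alanine counts given below reach at most 1.27 points either side, were 45.1 to 47.3% and 38.4 to 39.3% in knockdown libraries, and 35.2 to 37.7% and 32.1 to 33.1% in control libraries. The groups did not overlap, with means of 42.5 ± 5.20% in knockdown and 34.5 ± 2.70% in control libraries (SD, n = 2 each). The difference of 7.97 points had p = 0.333 in a two-sided exact permutation test, the smallest p that 2 against 2 libraries can give, so this design cannot pass 0.05. It was 9.74 points within number 3 and 6.21 points within number 4, and 4.30 points over the libraries left when knockdown library 3 was taken out.

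TGC made up 40.7% and 40.1% of alanine counts in knockdown libraries 3 and 4, against 49.1% and 45.4% in control libraries 3 and 4. Here too the groups did not overlap. Much of this difference lay in a single gene. The knockdown share of Ala-TGC-4-1 alone differed from control by −8.48 points within number 3 and −3.93 within number 4. For all TGC genes together these differences were −8.37 and −5.23 points. CGC made up 13.1% and 21.1% in knockdown libraries, against 14.5% and 22.0% in control libraries. Its share was higher in both number 4 libraries than in both number 3 libraries, and the lines overlapped. These shares sum to a whole, so 1 cannot move without the others. They describe reads, and how well each tRNA enters a library and maps can set them, which was not tested.

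**Figure D2:**
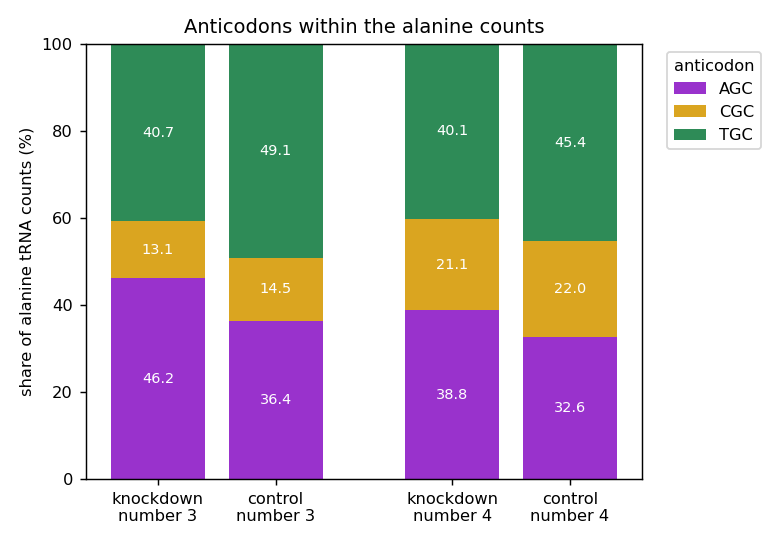
Share of alanine tRNA counts (%) held by each anticodon in each library, with the knockdown bar beside the control bar of the same number. AGC is larger in the knockdown bar of both pairs, 46.2% against 36.4% in number 3 and 38.8% against 32.6% in number 4.

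A single pair of copies carried much of the difference in number 3. Ala-AGC-9-1 and Ala-AGC-9-2 together held 46.5% and 5.63% of the AGC counts in knockdown libraries 3 and 4, against 26.7% and 3.08% in control libraries 3 and 4. With both copies left out, AGC made up 31.5% and 37.4% of alanine counts in knockdown libraries 3 and 4, against 29.6% and 31.9% in control libraries 3 and 4. The differences were then 1.89 points within number 3 and 5.53 within number 4, and the groups overlapped. That alternative was chosen after the values were seen.

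The genes of chromosome 6 made up 60.0% and 51.0% of alanine counts in knockdown libraries 3 and 4, against 49.3% and 44.8% in control libraries 3 and 4. The groups did not overlap (55.5 ± 6.36% in knockdown and 47.0 ± 3.21% in control libraries, SD, n = 2 each; difference 8.51 points, two-sided exact permutation p = 0.333). The difference was 4.01 points without knockdown library 3, 13.0 without knockdown library 4, 5.52 without the Ala-AGC-9 copies and 5.61 without Ala-TGC-4-1. Most AGC genes lie on chromosome 6, so the 2 shares rest largely on the same reads. The 3 groups behaved differently. The first, which holds the mirrored pairs, made up 30.0% and 11.7% of alanine counts in knockdown libraries 3 and 4, against 19.2% and 10.5% in control libraries 3 and 4. The second, with the 72-base AGC genes, made up 27.1% and 37.3% in knockdown libraries, against 27.1% and 32.3% in control libraries. The third held 2.94% and 2.07% in knockdown libraries and 2.99% and 1.96% in control libraries. The number 3 difference in the first group came from the Ala-AGC-9 copies. With both copies left out, the other genes of the first group held 10.9% and 9.70% of alanine counts in knockdown libraries 3 and 4, against 10.5% and 9.62% in control libraries 3 and 4. The second group then held 34.5% and 38.1% in knockdown libraries 3 and 4, against 30.0% and 32.6% in control libraries 3 and 4.

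All alanine genes together made up 0.901% and 3.77% of the table's counts in knockdown libraries 3 and 4, against 0.847% and 3.48% in control libraries 3 and 4. The groups overlapped, with 2.33 ± 2.03% in knockdown and 2.16 ± 1.86% in control libraries (SD, n = 2 each; two-sided exact permutation p = 0.667). The spread lay between the replicate numbers, described below.

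Tested gene by gene over all 4 libraries, no alanine gene passed the test between the lines. Of the 51 genes 45 had enough counts to be tested. edgeR's quasi-likelihood test called 0 of them at an adjusted p under 0.05 (Benjamini-Hochberg), and 0.0% of the 489 genes tested in all. No alanine gene had an unadjusted p under 0.05, as 1 gene in the whole table did, and DESeq2 also called 0 of 574. Summed by anticodon, 0 of the 3 tested alanine families were called, with 0.0% of 52 families, 0 at an unadjusted p under 0.05 and 0 of 58 in DESeq2. Summed over copies that share a symbol number, 0 alanine groups were called, with 0.0% of 326 groups, 1 of them at an unadjusted p under 0.05 and none of 409 called in DESeq2. The median log2 fold change of the 45 alanine genes was 0.06, against −0.03 over all 489.

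The SEs show how little this fit could resolve. The AGC family, with 3655 and 17703 counts in knockdown libraries 3 and 4 against 2154 and 12138 in control libraries 3 and 4, had a log2 fold change of 0.49 ± 0.83 (SE, adjusted p = 0.994, edgeR). Ala-AGC-7-1, an AGC gene of the second chromosome 6 group, had 249 and 3918 counts in knockdown libraries 3 and 4, against 185 and 2591 in control libraries 3 and 4, and a fold change of 0.16 ± 1.32 on the log2 scale. Ala-CGC-3-1 had 269 and 4065 counts in knockdown libraries, against 267 and 3754 in control libraries. In these genes each library stood near the one with its own number, and the lines overlapped.

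Libraries with the same number departed from their group means in a shared way, with a correlation of 0.844 across the 45 alanine genes and 0.924 across all 489 tested genes. The labels do not call the number a batch. Ratios were therefore also taken within each number, and the same test was run with the number as a term. Under TMM that fit pooled the spread over all genes, with a common dispersion of 0.0178 against 0.461 without the term. Its p-values, like those between the numbers below, thus do not measure the spread of each gene's own libraries. In that fit 4 alanine genes rose in the knockdown line and none fell, against 5.32% of all tested genes called higher and 2.66% called lower. All 4 were AGC genes, and they form the copy pairs Ala-AGC-9 and Ala-AGC-2. The tally of 4 genes counts both copies of each pair. Summed over copies, with the number as a term, these were the 2 alanine groups called. The alanine genes form 43 copy groups, not all of them tested. Over all copy groups 45 of 326 were called, 33 of them higher in the knockdown line. At this level alanine groups were thus not called higher more often than copy groups in general. The 7 other families with an adenosine at position 34, given as a list chosen with earlier results known, had 5 genes called higher and 1 lower of 69 tested.

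Ala-AGC-9-1 had 851 and 496 counts in knockdown libraries 3 and 4, against 298 and 181 in control libraries 3 and 4. That is 968 and 409 CPM in knockdown libraries and 427 and 169 CPM in control libraries. Each knockdown library stood above the control of its number, but knockdown library 4 lay below control library 3. The log2 ratios were 1.25 within number 3 and 1.01 within number 4, and the fit with the number gave 1.14 ± 0.19 (SE, adjusted p = 3.46e-07, edgeR). Its copy Ala-AGC-9-2 had 848 and 500 counts in knockdown libraries 3 and 4, against 278 and 193 in control libraries 3 and 4, or 965 and 413 CPM in knockdown and 398 and 180 CPM in control libraries. Here the groups did not overlap, though knockdown library 4 stood only just above control library 3. The fit with the number gave 1.15 ± 0.19 (SE, adjusted p = 3.36e-07, edgeR). Without the number as a term the values were 1.20 ± 0.92 and 1.25 ± 0.90, with adjusted p = 0.998 for both (edgeR). Summed, the 2 copies gave 1.16 ± 0.18 with the number as a term (adjusted p = 1.79e-08, edgeR).

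The Ala-AGC-2 copies rest on 1 library. Ala-AGC-2-1 (chr6:28838444-28838515, minus strand) had 3 and 128 counts in knockdown libraries 3 and 4, against 4 and 19 in control libraries 3 and 4. Ala-AGC-2-2, whose sequence is shown above, had 7 and 160 counts in knockdown libraries, against 5 and 26 in control libraries. Only knockdown library 4 stood apart, and in number 3 all values were below 10 counts. The log2 ratios were −0.62 and 0.19 in number 3 and 2.28 and 2.16 in number 4 for Ala-AGC-2-1 and Ala-AGC-2-2. The fit with the number gave 1.93 ± 0.43 and 1.86 ± 0.38 (adjusted p = 0.000487 and 0.000103, edgeR). Without knockdown library 4, in the fit that has no number term, the log2 fold changes were −1.51 and −0.73. That fit sets knockdown library 3 against control libraries 3 and 4, so line and number are mixed in these values. DESeq2 with the number as a term gave no adjusted p for either gene and adjusted p = 0.280 for their sum.

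**Figure D3:**
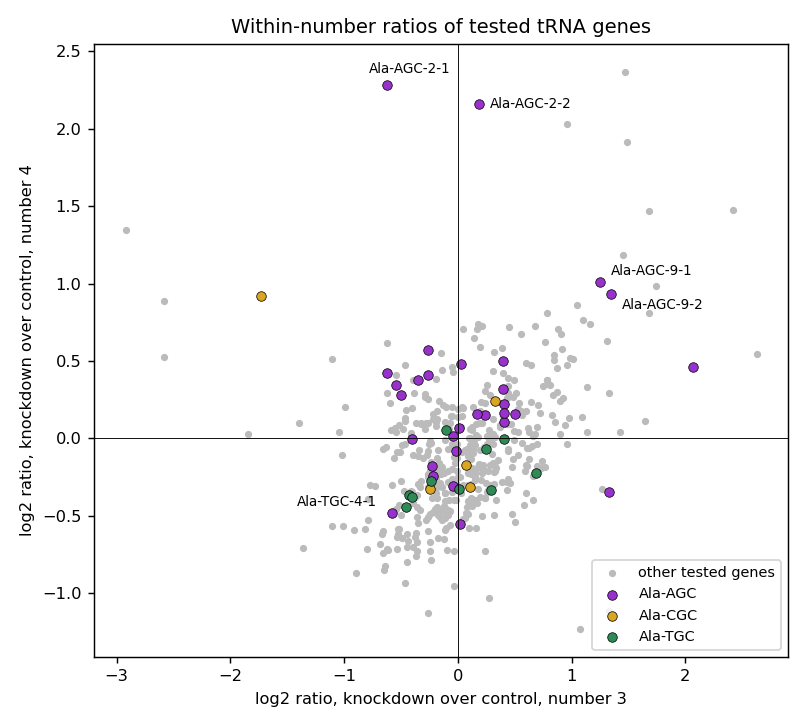
Log2 ratios of knockdown over control within number 3 (horizontal) and number 4 (vertical) for the 489 tested tRNA genes, with 0.5 added to each count before scaling; alanine genes are coloured by anticodon. The Ala-AGC-9 copies lie up and to the right, the Ala-AGC-2 copies lie high on the vertical axis only, and TGC genes gather below 0 in number 4 under this TMM scaling.

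No other alanine gene was called in that fit. Over all 45 tested genes, these copies included, 15 were higher in knockdown in both numbers, 11 lower in both and 19 opposite. That is 33.3% higher in both, against 27.2% of all tested genes. The 7 other families with adenosine 34 also had 33.3% higher in both, 23 of 69. AGC genes were 30 of the 45 tested and made up most of the alanine genes higher in both, with 14 higher and 6 lower in both numbers. Among TGC genes 0 of 10 were higher in both and 4 were lower in both, and among the 5 CGC genes 1 was higher and 1 lower in both. The median ratio of TGC genes was −0.05 in number 3 and −0.30 in number 4, against 0.01 and 0.19 for AGC genes. Over all genes the medians were 0.03 in number 3 and −0.09 in number 4. These tallies and medians hold for TMM. By library totals the medians in numbers 3 and 4 were −0.04 and 0.18 over all genes, −0.06 and 0.46 for AGC genes and −0.12 and −0.04 for TGC genes. By library totals 12 of 30 AGC genes and 3 of 10 TGC genes were higher in both numbers, or 40.0% and 30.0%, against 38.4% of all tested genes. Of all 45 alanine genes 17 were higher in both by library totals, or 37.8%. The alanine and AGC shares of genes higher in both numbers were thus close to that of all genes under this scaling.

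Ala-AGC-15-1 on chromosome 14 was among the AGC genes that lay lower in the knockdown line. It had 83 and 263 counts in knockdown libraries 3 and 4, against 104 and 270 in control libraries 3 and 4. Its log2 ratios were −0.58 and −0.48, and the fit with the number gave −0.52 ± 0.21 (SE, adjusted p = 0.119, edgeR), which does not pass. Ala-AGC-4-1 gave −0.20 ± 0.20, while Ala-AGC-3-1 gave 0.31 ± 0.19 and Ala-AGC-5-1 gave 0.19 ± 0.19 in the same fit, none of them past the threshold. The leading gene Ala-TGC-4-1 had −0.43 and −0.37 within numbers and −0.40 ± 0.26 (adjusted p = 0.423, edgeR). The other named TGC and CGC genes, Ala-TGC-2-1, Ala-TGC-3-1, Ala-TGC-3-2, Ala-CGC-1-1 and Ala-CGC-3-1, ranged between −0.29 and 0.07 in that fit, and none passed.

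For the families, the AGC ratio was above 0 in both numbers under each of the 4 scalings tried. It was 0.36 and 0.54 with TMM on families and 0.50 and 0.10 with TMM on genes. These sums keep the Ala-AGC-9 copies, which held 46.5% of the AGC counts in knockdown library 3 and 26.7% in control library 3. Family ratios and fits without these copies were not computed, so the sign in number 3 may rest on them. With the number as a term the AGC family gave 0.45 ± 0.18 (SE, adjusted p = 0.103, edgeR), and with library totals in place of TMM 0.40 ± 0.14 (adjusted p = 0.0440, edgeR). With the number as a term, its adjusted p ran from 0.0440 to 0.543 over the alternatives, so the call depends on the scaling. The scalings other than TMM on families were applied to the family ratios after the values were seen. TGC gave −0.25 and 0.11 with TMM on families and −0.11 and −0.32 with TMM on genes, so its sign in number 4 changed with the scaling, as did those of CGC in both numbers.

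The replicate number separated the alanine genes far more than the line did. Alanine genes made up 3.62% of the counts in number 4 libraries on average and 0.874% in number 3 libraries. With the line as a term, edgeR called 34 of the 45 tested alanine genes higher in number 4 and 4 lower, leaving 7 uncalled. Over all tested genes 40.3% were called higher and 37.4% lower, and with library totals 235 of 365 calls were higher, against 197 of 380. The median log2 fold change of number 4 over number 3 was 1.95 for alanine genes and 0.01 for all. Genes of the other 7 families with adenosine 34 had a median of −0.18, with 29 called higher and 29 lower of 69.

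By anticodon, 25 of 30 AGC genes were called higher in number 4 with a median of 2.48, 4 of 5 CGC genes with 1.95 and 5 of 10 TGC genes with 0.57. The highest value was that of Ala-AGC-8-1, in an intron of AGBL5 on chromosome 2. It had 1015 and 738 counts in the number 4 libraries of knockdown and control, against 36 and 31 in the number 3 libraries, and 3.72 ± 0.23 on the log2 scale (SE, adjusted p = 2.59e-44, edgeR). The 4 genes called lower were Ala-AGC-9-1 by −1.73, Ala-AGC-9-2 by −1.63, Ala-TGC-9-1 by −1.94 and an AGC gene at chr6:57813490-57813562 by −1.40. Of the 4 genes that rose in the knockdown line with the number as a term, the Ala-AGC-9 copies were thus lower in number 4. The Ala-AGC-2 copies were higher in number 4, by 3.23 for Ala-AGC-2-1 and 2.81 for Ala-AGC-2-2. The number was not described in the labels, so what differed between the libraries of numbers 4 and 3 cannot be told apart from it.

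**Figure D4:**
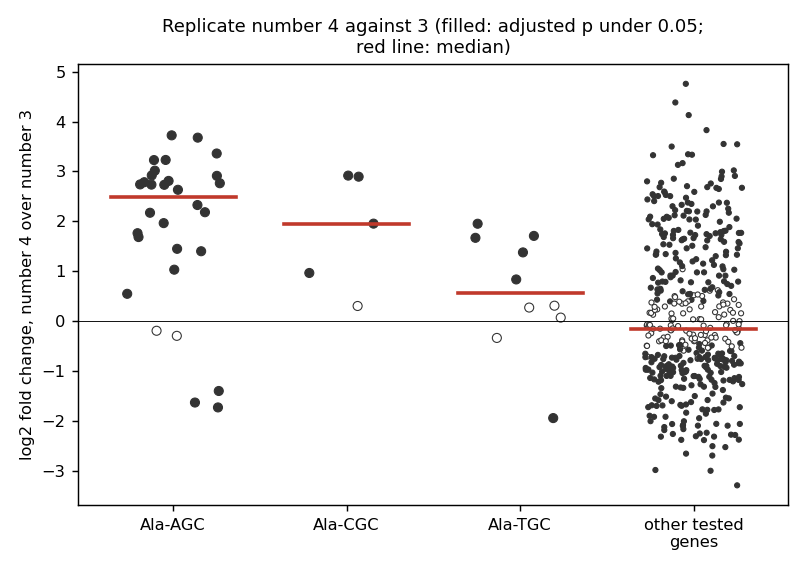
Log2 fold change of replicate number 4 over number 3 for the tested genes of each alanine anticodon and for all other tested genes, with filled points at an adjusted p under 0.05 and a red line at the median. AGC genes have a median of 2.48 and 3 filled points below 0, and the other tested genes spread about evenly around 0.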

How the data were processed

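The deposited values are counts, whole numbers of reads for each tRNA gene; nothing in them points to normalization by the authors. Bowtie2 2.2.2, hg38 and GRCh38 appear in the submitters' processing notes, and summarizeOverlaps appears in the labels. The treatment of multi-mapping reads, of mismatches at edited bases, of lanes and of strand is not given in the sources used. Per the labels' protocols, TRIzol RNA was made into small RNA libraries and fragments of 160 to 220 base pairs were kept. The prediction score, the intron flag, the mismatch number and the gene width are other values that the authors deposited per gene.

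Columns were matched to groups by the library codes in the labels, and 0 count columns were left over. edgeR 4.0.16 (R 4.3.3) fitted all genes, anticodon families or copy groups of the table, with filterByExpr at a minimum count of 10, TMM and Benjamini-Hochberg adjustment at 0.05. SEs were derived from each fold change and its F statistic. Ratios within a number use counts with 0.5 added, scaled by TMM, and come from 1 library per group. The main fit has the group only. The alternatives were DESeq2 1.42.0, its size factors, library totals, no filter, the replicate number as a term and each library left out. Shares were compared by exact permutation tests (scipy 1.17.1). Scripts were tested on simulated counts.

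The named genes were the leading gene of each anticodon, the 10 with the highest mean CPM, those called with or without the number as a term, the 5 with the smallest p, and those at 0 or with a name that disagrees with the columns. Ala-AGC-10-1, Ala-AGC-13-1, Ala-AGC-8-1, the partners in mirrored pairs and the genes called lower in number 4 were named after their values were seen. The members and lists were chosen with earlier results of these data known. RefSeq (GRCh38.p14) has a tRNA gene with the same ends for 37 of the members. Sequences were read for 2 of them and are not shown for the others.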

Additional observations from a re-analysis of the deposited data

How the results depend on the processing

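Without the number as a term, 0 alanine genes, families and copy groups were called under DESeq2, its size factors, library totals, no filter and each library left out. The same numbers pair libraries only by label, and the pairing check is given with the results. With the replicate number as a block, 4 alanine genes were called under TMM, library totals, size factors and no filter. DESeq2 with the block called 2, the Ala-AGC-9 copies, and gave no adjusted p for the Ala-AGC-2 copies. Calls over all genes were 39 with the block, 76 with library totals, 61 with size factors, 42 with no filter and 37 in DESeq2. Alanine copy group calls with the block were 2 under each of these scalings and filters and 1 in DESeq2. Calls over all copy groups were 45 of 326 with the block, 33 of them higher in knockdown. They were 52 with library totals, 29 with size factors, 30 with no filter and 10 in DESeq2. Of the alanine families, 1 (Ala-AGC) was called with library totals only. Families called over the whole table were 3 with the block, 9 with library totals and 0 in the others. The number contrast called 38 alanine genes, and 33 to 39 in the alternatives.

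Of 195 alternative values for the 15 tested named genes, 149 kept direction and call, 18 gained a call and 28 changed direction. Ala-AGC-4-1 was 0.044 with library totals. Ala-TGC-3-2 was 0.012 with library totals and, with the block, 0.067 with library totals, 0.035 with size factors, 0.044 with no filter and 0.049 in DESeq2. Leaving out 1 library leaves unequal numbers of 3 and 4 in the groups, and log2 fold changes then ran from −1.51 to 2.90 for Ala-AGC-2-1, −0.73 to 2.95 for Ala-AGC-2-2, −0.93 to 1.80 for Ala-AGC-3-1, −2.18 to 1.92 for Ala-AGC-4-1, −1.26 to 1.80 for Ala-AGC-5-1, −1.93 to 2.41 for Ala-AGC-7-1, −2.18 to 2.17 for Ala-CGC-1-1, −2.36 to 1.94 for Ala-CGC-3-1, −0.94 to 1.32 for Ala-TGC-2-1, −0.96 to 0.86 for Ala-TGC-3-1, −0.53 to 0.68 for Ala-TGC-3-2 and −1.68 to 1.02 for Ala-TGC-4-1. The range was 0.03 to 2.19 for Ala-AGC-9-1 and 0.10 to 2.10 for Ala-AGC-9-2, lowest without knockdown library 3, and −0.85 to −0.14 for Ala-AGC-15-1. The lone library left in a group is assumed to vary like the others. The alanine share of all counts differed by −1.26 to 1.60 points, and was lower in knockdown without knockdown library 4 (−1.26) or control library 3 (−1.15). The AGC share kept its direction, at 4.30 to 11.6 points with a library left out, 3.71 without the Ala-AGC-9 copies and 6.29 without Ala-TGC-4-1, and the chromosome 6 share at 4.01 to 13.0, 5.52 and 5.61 points.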

Other observations

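The stretch of chromosome 6 that holds the mirrored alanine pairs (chr6:26673362-26828299) held 21 tRNA genes of the table, 13 of them alanine AGC genes. Of its 19 tested genes, 11 were alanine and 8 carried isoleucine or methionine. With the replicate number as a term, 2 of the 11 alanine genes (the Ala-AGC-9 copies) and 2 of the 8 others were called higher in the knockdown line, and 0 were called lower, where 5.32% of all tested genes were called higher. In both numbers 6 of the 11 alanine genes and 3 of the 8 others were higher, against 27.2% of all tested genes (TMM). The stretch was chosen after the values were seen, so its counts are a description with no test.

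The AGC genes of 72 bases held 13.1% and 25.6% of alanine counts in knockdown libraries 3 and 4, against 13.1% and 21.6% in control libraries 3 and 4. Those of 73 bases held 32.9% and 13.2% in knockdown libraries, against 23.2% and 11.0% in control libraries. In knockdown library 3 the larger share of the longer class rested on the Ala-AGC-9 copies. Without them it had 908 counts there, against 1041 of the shorter class. In control library 3 the longer class still had slightly more counts without them, 798 against 774.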
